A study of Mus musculus with 12 samples.

Results

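The 38 genes described here encode the glutathione and thioredoxin systems together with the regulator Nrf2, its inhibitor Keap1 and a set of enzymes that Nrf2 is known to induce. They were chosen by gene symbol from a list, and all 38 were found among the 20614 genes of the expression table. By role, 6 make, recycle or break down glutathione, 5 are glutathione peroxidases, 8 are glutathione S-transferases, 7 are peroxiredoxins or sulfiredoxin, 7 belong to the thioredoxin and glutaredoxin branch, and 5 are Nrf2, Keap1 and quinone or heme enzymes. RNA came from astrocytes of male mice aged 12 to 14 months, in 3 Cd38+/+ libraries, 3 Cd38+/- libraries and 6 Cd38-/- libraries. CD38 is an ectoenzyme that consumes NAD+, and the question was how its partial or full loss changes the transcripts of astrocytes. The mutant allele is a global disruption of exons 2 to 3 of Cd38, so every cell of the animal carried it and not the astrocytes alone. Striatum, thalamus and substantia nigra were dissected together as midbrain tissue, endothelial cells, myelin and CD11b-positive cells were depleted with beads, and astrocytes were then captured with ACSA-2 beads. Neither the labels nor the methods say that each library came from a separate animal, so the p-values measure the spread between libraries, which may be partly technical.

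Glutathione is a small thiol that astrocytes make in large amounts and also supply to neurons in the form of its building blocks. Glutathione peroxidases and peroxiredoxins reduce peroxides. Most of the first are recharged by glutathione and most of the second by thioredoxin. Glutathione reductase and the thioredoxin reductases then return both carriers to the reduced state with electrons from NADPH. Nrf2 (gene Nfe2l2) is the transcription factor that switches on many of these genes through the antioxidant response element, and Keap1 holds Nrf2 in the cytosol and directs its degradation until oxidants modify it.

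The coding sequences of the peroxidases show a chemical split inside the group. The stretches below, read from GENCODE vM21 transcripts on GRCm38, are printed because they carry the catalytic residue of each glutathione peroxidase. Capitals mark its codon, whose number from the start codon stands beside the gene position. Here and below, codons are numbered in the transcript with the longest coding sequence, and the numbers can differ in other isoforms. All stretches are exonic.
Gpx1, gene at chr9:108338903-108340343, plus strand, codon 47: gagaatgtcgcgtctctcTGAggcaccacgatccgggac
Gpx3, gene at chr11:54902453-54910377, plus strand, codon 73: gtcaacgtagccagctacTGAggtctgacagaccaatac
Gpx4, gene at chr10:80047166-80056439, plus strand, codon 129: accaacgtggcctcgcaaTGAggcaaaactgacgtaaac
Gpx7, gene at chr4:108400390-108406961, minus strand, codon 56: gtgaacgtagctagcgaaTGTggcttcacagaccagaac
Gpx8, gene at chr13:113042753-113046410, minus strand, codon 79: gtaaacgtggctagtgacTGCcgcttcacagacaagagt
Gpx1, Gpx3 and Gpx4 hold TGA at this codon, which the annotation marks as selenocysteine in each of the 3 genes. Gpx7 and Gpx8, both of the endoplasmic reticulum, hold a cysteine codon there. The thioredoxins of the cytosol (Txn1) and of mitochondria (Txn2) use a pair of cysteines instead, and capitals below mark the active-site codons from the first to the last of this pair.
Txn1, gene at chr4:57943373-57956411, minus strand, codon 32: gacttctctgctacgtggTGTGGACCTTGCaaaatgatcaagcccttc
Txn2, gene at chr15:77915047-77929006, minus strand, codon 90: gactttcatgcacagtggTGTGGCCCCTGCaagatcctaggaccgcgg
The thioredoxin reductases Txnrd1 and Txnrd2 are selenoproteins as well, with TGA as the next-to-last codon before the stop.
Txnrd1, gene at chr10:82833951-82897712, plus strand, codon 612: atcctccagtctggctgcTGAggttaa
Txnrd2, gene at chr16:18426384-18479073, plus strand, codon 526: cctactgtgactggttgcTGAggctaa

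Promoters were searched for the core of the antioxidant response element, TGACNNNGC on either strand, in RefSeq windows (GRCm38.p6). Each window reaches from 250 bases before to 50 bases after an annotated start, and a gene can have more than 1 such start. The Txnrd1 window with a match lies inside the gene span given above. The runs printed below for Mgst1 and Srxn1 also lie inside the GENCODE spans of their genes, and that of Gstm5 crosses its gene start. Windows were held for 32 of the 38 genes. None was held for Gclc, Gsr, Ggt5, Gsta4, Prdx6 or Hmox1, so these genes were not searched. The motif occurred in 7 of these 32 genes (21.9%) and in 3781 of 27025 genes overall (14.0%). Counted by window, it occurred in 7 of 42 (16.7%) and in 4071 of 32851 (12.4%). These windows are printed because the genes are those that carry a match; each run is 29 bases on the strand that reads TGACNNNGC, with the match in capitals.
Gclm, chr3:122245413-122245441, minus strand: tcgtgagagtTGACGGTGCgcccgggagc
Gstm5, chr3:107895802-107895830, plus strand: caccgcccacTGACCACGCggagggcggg
Mgst1, chr6:138140461-138140489, minus strand: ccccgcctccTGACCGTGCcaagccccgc
Nfe2l2, chr2:75704885-75704913, minus strand: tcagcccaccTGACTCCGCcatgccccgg
Prdx1, chr4:116685456-116685484, minus strand: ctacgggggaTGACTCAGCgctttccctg
Srxn1, chr2:152105542-152105570, minus strand: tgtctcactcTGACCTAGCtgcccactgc
Txnrd1, chr10:82859104-82859132, minus strand: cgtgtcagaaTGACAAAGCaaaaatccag
A match describes the letters in this window and is not evidence of binding. The lack of a match does not show that a gene has no such element outside its windows. Nqo1, for example, was searched and had no match.

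Gene expression was deposited in TPM, a measure of transcript abundance that is scaled by transcript length, with values that add up to the same total in each library, which leaves the read depth unknown. Cd38, the check of genotype, held 148.64, 120.04 and 104.88 TPM in Cd38+/+, 90.36 to 90.80 in Cd38+/- and 8.54 to 21.86 in Cd38-/-. All 12 astrocyte markers reached 1 TPM in every library, and their summed level was 11944 to 17031 TPM in Cd38+/+, 17901 to 19982 in Cd38+/- and 13564 to 17638 in Cd38-/-. Other cell types were also present: oligodendrocyte markers summed to between 1406 and 17873 TPM, ependymal markers to between 3286 and 6681, choroid plexus markers to between 138 and 7398, endothelial markers to between 576 and 3086, mural and fibroblast markers to between 256 and 506, microglia and macrophage markers to between 13.7 and 93.2, and neuronal markers to between 58.5 and 176. The erythroid list, carried by the globin genes with Slc4a1 near 0, summed to 7770 to 34711 TPM in Cd38+/+, 3228 to 6453.5 in Cd38+/- and 3805 to 15378 in Cd38-/-. Genes of the response to tissue dissociation summed to 944 to 1207 TPM in Cd38+/+, 504 to 801 in Cd38+/- and 600.2 to 1180 in Cd38-/-. The Cd38+/+ libraries stood apart in detection. They listed 13160 to 13516 genes above 0, against 16160 to 16327 in Cd38+/- and 15920 to 17906 in Cd38-/-, and of 11373 genes with a mean above 5 TPM they listed 112 to 221 at 0, against 1 to 7 in each other library.

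The antioxidant genes were among the abundant transcripts of these cells, with a median of the mean levels of 96.0 TPM for the members and 30.7 for all genes tested in Cd38-/- against Cd38+/+, and their total did not separate the genotypes. The 38 genes together took 12453 to 14833 TPM in Cd38+/+, 12136 to 13825 in Cd38+/- and 12375 to 14637 in Cd38-/-. The most abundant was Prdx6, a peroxiredoxin with phospholipase activity, at 3012.6, 2483.72 and 3839.55 TPM in Cd38+/+, 3095.36, 3493.37 and 3476.23 in Cd38+/-, and from 3130.64 to 3770.25 with a median of 3346 in Cd38-/-. The mu-class glutathione S-transferase Gstm1 held 3300.15, 2408.88 and 2960.92 TPM in Cd38+/+, 2476.84, 2479.09 and 2502.03 in Cd38+/-, and 2313.68 to 2619.84 (median 2499) in Cd38-/-. Gstm5 held 1210.96, 1144.73 and 935.21, then 961.16, 1461.38 and 1162.51, then 748.54 to 1300.39 (median 1175). The genotypes overlapped for each of these 3 genes. Gstm1, Gstm5, Gstp1 and Prdx6 have near-identical relatives or copies in the mouse genome, and how the estimation divided their reads is uncertain.

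Per library, the mean of log2(TPM + 1) over the 38 genes was 6.79 to 6.87 in Cd38+/+, 6.88 to 6.91 in Cd38+/- and 6.83 to 7.05 in Cd38-/-. Every Cd38+/- library thus lay above every Cd38+/+ library, while the Cd38-/- range overlapped both. Over all genes with a mean above the expression minimum the same measure was 4.93 to 5.02, 5.09 to 5.34 and 5.08 to 5.34, with every Cd38+/+ library below every other. The spread of the members between libraries was below that of all genes, from which they also differ in abundance; the spread at matched abundance was not compared. Their median SD of log2(TPM + 1) came to 0.32 among Cd38+/+ libraries, 0.14 among Cd38+/- and 0.16 among Cd38-/-, against 0.48, 0.20 and 0.23 over genes with a mean above 5 TPM. The widest spread was within Cd38+/+, where Hmox1, Hmox2, Keap1, Txnip and Gss had the largest SDs of log2(TPM + 1), 1.86, 0.91, 0.90, 0.85 and 0.84.

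**Figure D1:**
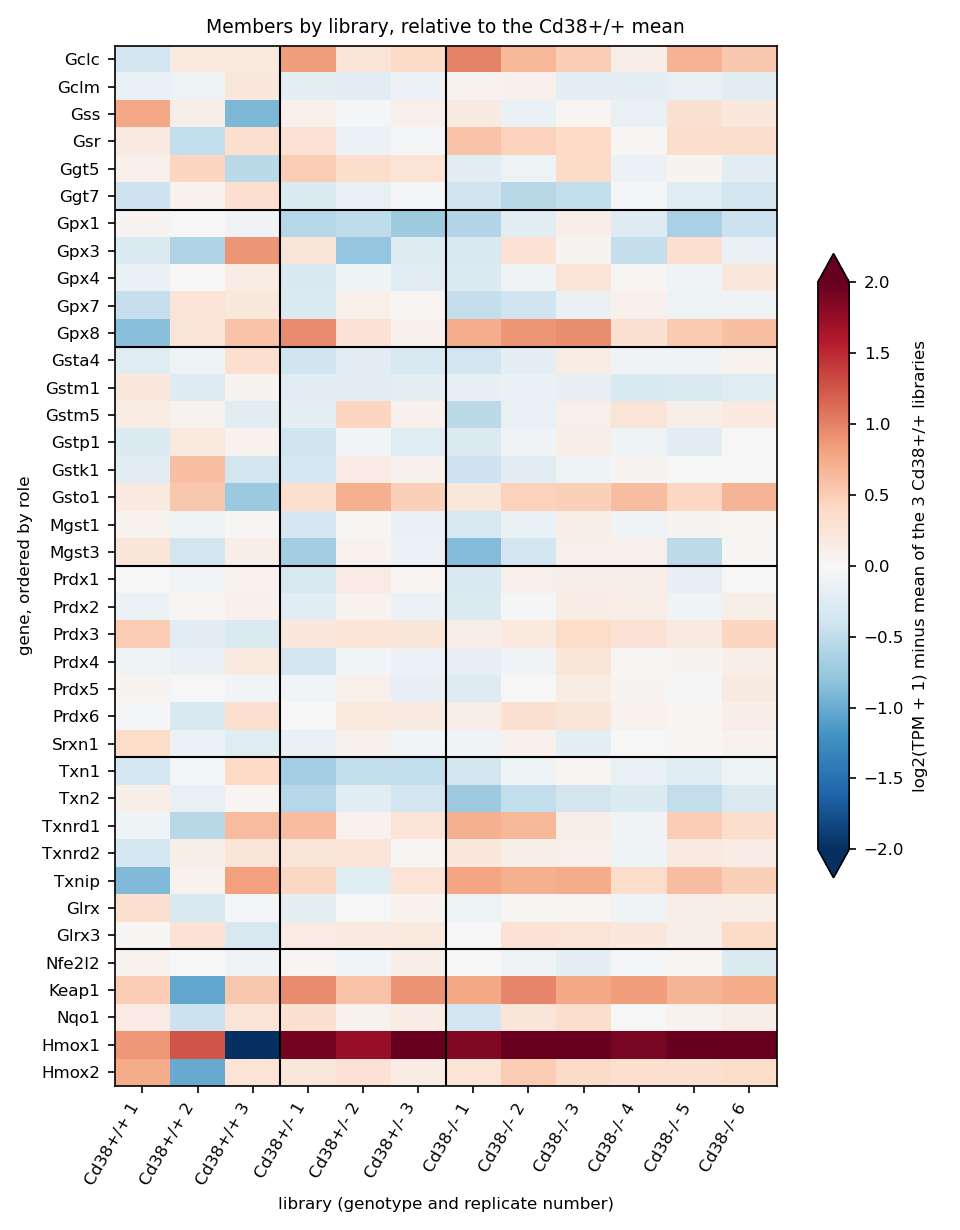
Colours show log2(TPM + 1) of each of the 38 genes (rows, grouped by role) in each of the 12 libraries (columns), minus the mean of the 3 Cd38+/+ libraries; the scale stops at -2 and 2. Hmox1 is high in all 9 libraries of the mutant genotypes and reaches the upper end of the scale in several of them and the lower end in Cd38+/+ replicate 3, whereas Nfe2l2, the peroxiredoxins and most transferases stay pale throughout.

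A differentially expressed gene (DEG) was one that passed limma at q under 0.05 with a change of 1.2-fold or more, tested on log2(TPM + 1) over all genes with a mean above 5 TPM in a compared genotype. In Cd38-/- against Cd38+/+, 37 of the 38 members were tested (Ggt5 was too low) and 2 were DEGs, Hmox1 higher and Txn2 lower. That is 5.41% of the members tested, beside 8.28% of all 11722 genes (6.42% higher and 1.86% lower). An unadjusted limma p under 0.05 was found for 6 members (16.2%), 5 higher and 1 lower, beside 23.6% of genes (17.6% higher and 5.99% lower). In Cd38+/- against Cd38+/+, all 38 members were tested and none was a DEG, which does not show that levels did not differ; by the same limma test 0% of 11763 genes were DEGs, and 13.5% had an unadjusted p under 0.05 (9.5% higher and 3.99% lower). The 3 members with such a p (7.89%), Gpx1, Txn1 and Txn2, were all lower. Cd38 itself was lower in Cd38+/- (log2 fold change -0.44, limma q = 0.226) and was not a DEG there either. Between the mutant genotypes, by limma, 0 of 38 members were DEGs beside 0.0346% of 11563 genes, and 3 had an unadjusted p under 0.05 beside 11.2% of genes. The first and second of these comparisons share the 3 Cd38+/+ libraries and are not independent.

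The members did not share a direction. Of the 37 tested in Cd38-/- against Cd38+/+, 20 log2 fold changes were above 0 (54.1%, beside 64.3% of all genes), with a median of 0.02 beside 0.15 for all genes. In Cd38+/-, 18 of 38 were above 0 (47.4%, beside 64.4%), with a median of -0.03 beside 0.18. Median-ratio scaling moved the all-gene medians to 0.04 and 0.06 and the member medians to -0.10 and -0.16. Correction for transcript length and GC content moved the member medians to 0.12 and 0.17, beside 0.16 and 0.19 for all genes, and so closed most of the gap. Under median-ratio scaling the share of higher genes among all Cd38-/- DEGs moved from 77.5% to 59.9% (50.2% after quantile normalization). Abundant genes as a class also lay nearer 0. Among the 20% of tested genes with the highest mean TPM, which held 19 members in each comparison, the median log2 fold change in Cd38-/- was 0.03 over all genes and -0.05 over those members, and in Cd38+/- it was 0.01 and -0.15. For 31 of 37 members the 95% confidence interval of the Cd38-/- change excluded a change of 2-fold or more in either direction, and for 27 of 38 members this held in Cd38+/-.

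**Figure D2:**
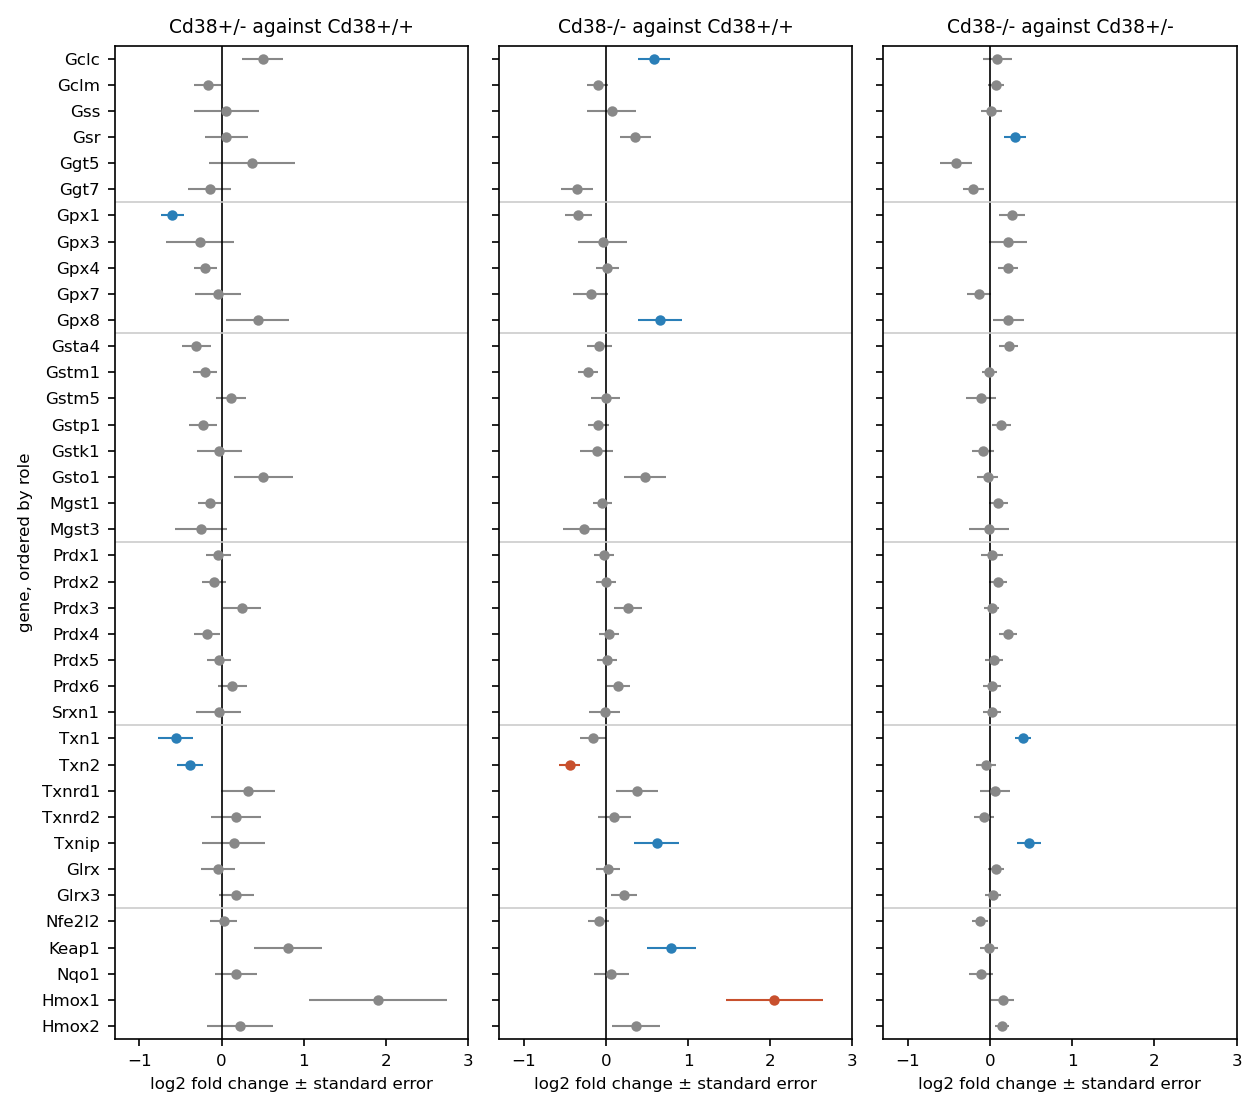
Each point is the log2 fold change of 1 gene with its standard error, in 3 panels for the 3 comparisons, with genes ordered by role. Red marks DEGs (Hmox1 and Txn2 in the middle panel), blue an unadjusted limma p under 0.05, grey the rest; in the right panel every point lies between -0.41 and 0.47.

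Nfe2l2, which encodes Nrf2 itself, was steady. It held 104.99, 99.7 and 95.08 TPM in Cd38+/+, 101.85, 95.63 and 108.19 in Cd38+/-, and 82.02 to 102.67 (median 96.3) in Cd38-/-. The genotypes overlapped, and the 95% interval of the log2 fold change in Cd38-/- ran from -0.36 to 0.18. Keap1, its inhibitor, held 49.7, 16.27 and 50.48 TPM in Cd38+/+, 67.54, 51.83 and 65.42 in Cd38+/-, and 55.75 to 69.41 (median 59.7) in Cd38-/-. Every mutant library lay above every Cd38+/+ library. The log2 fold change of Keap1 was 0.80 in Cd38-/- (standard error, SE, 0.29; limma q = 0.0761) and 0.81 in Cd38+/- (SE 0.41, limma q = 0.263), not past the threshold; the exact permutation test gave p = 0.0119 and p = 0.1, the smallest values that 6 against 3 and 3 against 3 libraries allow. Without Cd38+/+ replicate 2, the low library, the log2 fold change of Keap1 came down to 0.27 for the homozygous (limma q = 0.112) and 0.28 for the heterozygous comparison (limma q = 0.248). Non-overlap of this kind was found for 3 of 37 members in Cd38-/- (8.11%), Keap1 and Hmox1 higher and Txn2 lower, beside 11.8% of all genes (8.21% higher and 3.62% lower). In Cd38+/- it was found for 6 of 38 members (15.8%), with Gclc, Keap1 and Hmox1 higher and Gpx1, Txn1 and Txn2 lower, beside 22.5% of all genes (15.5% higher and 6.94% lower).

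Hmox1 (chr8:75093621-75100589, plus strand), the inducible heme oxygenase that breaks heme down to biliverdin, iron and carbon monoxide, rose in Cd38-/-. Its level was 7.04, 9.51 and 0 TPM in Cd38+/+, 15.51, 13.73 and 16.93 in Cd38+/-, and 14.84, 18.92, 17.77, 15.31, 17.6 and 18.95 in Cd38-/-. All 9 mutant libraries lay above the highest Cd38+/+ library, and the 2 mutant genotypes overlapped each other. The log2 fold change was 2.05 in Cd38-/- (SE 0.59, limma q = 0.0418; exact permutation p = 0.0119) and 1.90 in Cd38+/- (SE 0.84, limma q = 0.234). Both sizes rest on Cd38+/+ replicate 3, which is listed at 0: without that library the homozygous value was 0.98 on the log2 scale (limma q = 0.00906), still a DEG, and the heterozygous value 0.83 (limma q = 0.14). A pseudocount of 0.1 in place of 1 gave 3.18 (limma q = 0.0735) for Cd38-/- and 3.02 (limma q = 0.271) for Cd38+/-. The call was lost without each Cd38-/- library in turn, at q = 0.0849, 0.0947, 0.0616, 0.0561, 0.0892 and 0.0804 for replicates 1 to 6. Hmox1 is also expressed by macrophages, whose marker list summed to 13.7 to 46.6 TPM in Cd38+/+, 42.9 to 57.6 in Cd38+/- and 31.4 to 93.2 in Cd38-/-; 1 of its 11 genes reached 1 TPM in every library, and Mrc1 and Itgam averaged under 1 TPM. The summed level of the dissociation-response genes, given above by genotype, was higher in Cd38+/+ than in Cd38+/- and overlapped Cd38-/-. Single genes of that list went both ways: of 13 tested against Cd38+/+, 3 were above 0 on the log2 scale in Cd38+/- and 4 in Cd38-/-. The Cd38+/+ libraries also listed fewer genes above 0 than all others. Cd38+/+ replicate 3, with Hmox1 at 0, listed 112 of 11373 genes with a mean above 5 TPM at 0. Lower detection and the Cd38+/+ genotype fall together in these libraries. The part of macrophages, of dissociation or of detection in the Hmox1 result was not tested. In bulk RNA fewer cells of a type cannot be told apart from less RNA per cell. The constitutive heme oxygenase Hmox2 held 26.38 to 91.05 TPM in Cd38+/+ and 60.12 to 77.18 in the mutant libraries, within the Cd38+/+ range.

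Nqo1, a quinone reductase and a standard readout of Nrf2, held 48.05, 31.43 and 51.32 TPM in Cd38+/+, 53.1, 44.84 and 47.45 in Cd38+/-, and 32.63 to 55.01 (median 45.8) in Cd38-/-. Srxn1, the sulfiredoxin that repairs overoxidized peroxiredoxins, held 38.89, 27.51 and 25.4, then 27.5, 31.91 and 28.77, then 26.18 to 32.01 (median 30.2). Txnrd1 held 37.83, 27.06 and 62.53 TPM in Cd38+/+, 62.19, 42.19 and 48.59 in Cd38+/-, and 38.2 to 65.85 (median 54.1) in Cd38-/-. None of these 3 genes was a DEG in any comparison, and the genotypes overlapped for all 3. Of the 7 genes with the response element core printed above, none was a DEG or had an unadjusted limma p under 0.05 in any comparison. Their log2 fold changes in Cd38-/- ran from -0.10 for Gclm to 0.38 for Txnrd1. Hmox1 and Gclc are not among these genes because no promoter window was held for them, and whether they carry the core was not examined.

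In glutathione synthesis, the catalytic and the modifier subunit of glutamate-cysteine ligase were on opposite sides of 0 in Cd38-/-, and neither passed the test. Gclc, the catalytic subunit of the rate-limiting enzyme, held 41.65, 62.76 and 62.41 TPM in Cd38+/+, 98.62, 65.84 and 71.94 in Cd38+/-, and 110.12, 87.11, 77.16, 60.2, 88.74 and 79.5 in Cd38-/-. The Cd38+/- libraries did not overlap those of Cd38+/+, while Cd38-/- replicate 4 fell inside the Cd38+/+ range. The log2 fold change was 0.58 in Cd38-/- (SE 0.20, limma q = 0.0629) and 0.50 in Cd38+/- (SE 0.25, limma q = 0.257). Without Cd38+/+ replicate 2, Cd38+/+ replicate 3 or Cd38-/- replicate 4 the former became a DEG (limma q = 0.0422, 0.0281 and 0.0447). Without Cd38+/+ replicate 1 the values were 0.39 (limma q = 0.117) and 0.31 (limma q = 0.293), and without Cd38+/- replicate 1 the latter was 0.33 (limma q = 0.705). Gclm, the modifier subunit, held 172.06, 175.71 and 219.42 TPM in Cd38+/+, 165.64, 161.2 and 173.4 in Cd38+/-, and 162.26 to 199.84 (median 166) in Cd38-/-, and was a DEG in no comparison. Its transcript level was thus above that of Gclc in every library.

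The other genes of this role did not pass the test. Glutathione reductase, Gsr, held 41.89 to 73.82 TPM in Cd38+/+, 54.66 to 72.69 in Cd38+/- and 60.37 to 87.98 in Cd38-/-; its log2 fold change between the mutant genotypes was 0.30 (SE 0.13, limma q = 0.304). Glutathione synthetase, Gss, varied more within Cd38+/+, from 17.49 to 57.96 TPM, than within Cd38-/-, from 30.01 to 41.18. The gamma-glutamyltransferase family members Ggt7 and Ggt5 held 31.47 to 59.4 and 2.92 to 7.01 TPM over all libraries. Of these genes, Ggt7 became a DEG in Cd38-/- without Cd38+/+ replicate 1 (log2 fold change -0.56, limma q = 0.0440) and Gsr without Cd38+/+ replicate 3 (0.52, limma q = 0.0432). Over all alternatives the Cd38-/- value ran from -0.56 to -0.09 for Ggt7 and from 0.11 to 0.52 for Gsr.

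Among the glutathione peroxidases, Gpx1, the selenoenzyme of cytosol and mitochondria, showed its lowest levels in Cd38+/-. It held 291.49, 280.49 and 267.82 TPM in Cd38+/+, 187.97, 195.99 and 169.76 in Cd38+/-, and 185.71, 239.71, 307.57, 234.5, 178.69 and 207.66 in Cd38-/-. The Cd38+/- libraries all lay below those of Cd38+/+, and the Cd38-/- libraries spanned both. The log2 fold change of Gpx1 in Cd38+/- was -0.60 (SE 0.14, unadjusted limma p = 0.00218, q = 0.176; exact permutation p = 0.1). Gpx1 became a DEG with no filter on low values (limma q = 0.0258) and when all libraries shared 1 fit (limma q = 0.0301), whereas correction for length and GC content cut the log2 fold change to -0.32 (limma q = 0.339). Red cells are rich in Gpx1, and the erythroid list moved with it by genotype. In the Cd38-/- libraries, in the order above, that list summed to 4687, 8552, 15378, 14479, 4191 and 3805 TPM, so that the libraries with the lowest Gpx1 had low sums and the highest Gpx1 stood with the highest sum. In Cd38+/+, by contrast, the sums were 17777, 34711 and 7770 TPM while Gpx1 stayed within 267.82 to 291.49. The part of red-cell RNA was not tested.

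Gpx8 held 26.83, 58.43 and 72.37 TPM in Cd38+/+, 94.39, 59.47 and 51.6 in Cd38+/-, and 60.35 to 93.71 (median 77.3) in Cd38-/-. The groups overlapped, and the log2 fold change in Cd38-/- was 0.66 (SE 0.27, limma q = 0.0901). It was 0.25 without Cd38+/+ replicate 1 (limma q = 0.213) and 0.94, a DEG, without Cd38+/+ replicate 3 (limma q = 0.0173). Gpx4, the peroxidase that reduces lipid hydroperoxides and guards against ferroptosis, was the most abundant of the family at 783.46 to 1176.15 TPM. Gpx3, the secreted form, held 27.79 to 89.28 TPM and Gpx7 27.25 to 46.23. Each of Gpx3, Gpx4 and Gpx7 overlapped between all genotypes and was a DEG in none.

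The 8 glutathione S-transferases, which conjugate glutathione to electrophiles, gave no DEG in any comparison and no unadjusted limma p under 0.05. In Cd38-/-, 7 of the 8 changes from Cd38+/+ were below 0 on the log2 scale, with a median of -0.09 and a range from -0.26 for Mgst3 to 0.48 for Gsto1. Over all genes 64.3% were above 0. Of the negative transferase values, only that of Mgst3 kept its sign under every alternative. In Cd38+/-, 6 of 8 were below 0 with a median of -0.18, and of these only Mgst3 and Gsta4 kept their sign under every alternative. Gsto1 was a DEG in Cd38-/- without Cd38+/+ replicate 2 (log2 fold change 0.75, limma q = 0.0398), and over all alternatives its value ran from 0.11 to 0.75. The microsomal transferase Mgst1 held 550.5 to 765.2 TPM, Gstp1 441.28 to 667.75, Gsta4, which acts on lipid aldehydes, 272.01 to 452.44, and mitochondrial and peroxisomal Gstk1 95.91 to 193.66.

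Peroxiredoxins and sulfiredoxin stayed close to their Cd38+/+ levels. None of Prdx1 to Prdx6 or Srxn1 had an unadjusted limma p under 0.05 in any comparison, and log2 fold changes in Cd38-/- against Cd38+/+ lay between -0.02 and 0.27. The cytosolic Prdx1 held 664.99 to 925.43 TPM over all libraries and Prdx2, also abundant in red cells, 379.57 to 509.86. Prdx4 of the endoplasmic reticulum held 201.18 to 307.38 TPM and Prdx5 178.79 to 242.33. Prdx3, the mitochondrial form, held 135.86, 82.57 and 77.68 TPM in Cd38+/+ and 104.6 to 129.14 in the mutant libraries; without Cd38+/+ replicate 1, the highest library of all, it became a DEG in Cd38-/- (log2 fold change 0.52, limma q = 0.0194), and over all alternatives its value ran from 0.12 to 0.52.

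In the thioredoxin branch, the mitochondrial thioredoxin fell in Cd38-/-. Txn2 (chr15:77915047-77929006, minus strand) held 278.25, 232.37 and 264.31 TPM in Cd38+/+, 173.46, 221.48 and 197.74 in Cd38+/-, and 154.63, 182.84, 200.3, 212.89, 182.33 and 211.57 in Cd38-/-. Every mutant library lay below every Cd38+/+ library, and the mutant genotypes overlapped each other. The log2 fold change was -0.44 in Cd38-/- (SE 0.13, limma q = 0.0436; exact permutation p = 0.0119) and -0.39 in Cd38+/- (SE 0.16, limma q = 0.223; exact permutation p = 0.1). The Cd38-/- call was lost without Cd38+/+ replicate 1 (q = 0.0607) and without Cd38-/- replicates 1, 2, 3, 5 and 6 (q = 0.0854, 0.101, 0.0575, 0.0935 and 0.0724), and after correction for transcript length and GC content (log2 fold change -0.32, q = 0.0618). The same correction left -0.20 in Cd38+/- (limma q = 0.436). The enzyme that reduces Txn2, Txnrd2, held 15.37 to 23.64 TPM in Cd38+/+ and 18.58 to 24.1 in the mutant libraries, and its client Prdx3 is given above; neither was a DEG in Cd38-/- with all libraries.

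Txn1, the thioredoxin of cytosol and nucleus, was lowest in Cd38+/-. It held 114.83, 143.23 and 194.04 TPM in Cd38+/+, 91.17, 104.14 and 104.41 in Cd38+/-, and 113.76, 138.74, 149.1, 133, 123.8 and 136.8 in Cd38-/-. The Cd38+/- libraries lay below all others, of both Cd38+/+ and Cd38-/-. The log2 fold change in Cd38+/- was -0.56 (SE 0.21, unadjusted limma p = 0.0289, q = 0.212), and that of Cd38-/- against Cd38+/- was 0.40 (SE 0.10, unadjusted limma p = 0.00207, q = 0.151; exact permutation p = 0.0119), neither past the threshold. Without Cd38+/+ replicate 3 the former was -0.36 (limma q = 0.171). Txn1 was the only member without overlap between the mutant genotypes (2.63% of members, beside 5.73% of all genes, 2.85% higher and 2.88% lower).

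Txnip, which binds and inhibits thioredoxin and follows glucose supply, held 87.86, 172.23 and 287.83 TPM in Cd38+/+, 217.71, 137.95 and 196.72 in Cd38+/-, and 212.17 to 284.46 (median 260.1) in Cd38-/-. The highest single library was a Cd38+/+ one. Its log2 fold change was 0.62 in Cd38-/- against Cd38+/+ (SE 0.27, limma q = 0.110) and 0.47 against Cd38+/- (SE 0.15, limma q = 0.208), neither past the threshold. The former was 0.17 without Cd38+/+ replicate 1 (limma q = 0.296) and 1.03, a DEG, without Cd38+/+ replicate 3 (limma q = 0.00672); the latter was 0.28 without Cd38+/- replicate 2 (limma q = 0.393). Without Cd38+/+ replicate 3 Txnrd1 was a DEG in Cd38-/- as well (log2 fold change 0.69, limma q = 0.0301). The glutaredoxins Glrx and Glrx3 held 68.4 to 106.08 and 48.03 to 78.26 TPM and overlapped between genotypes.

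**Figure D3:**
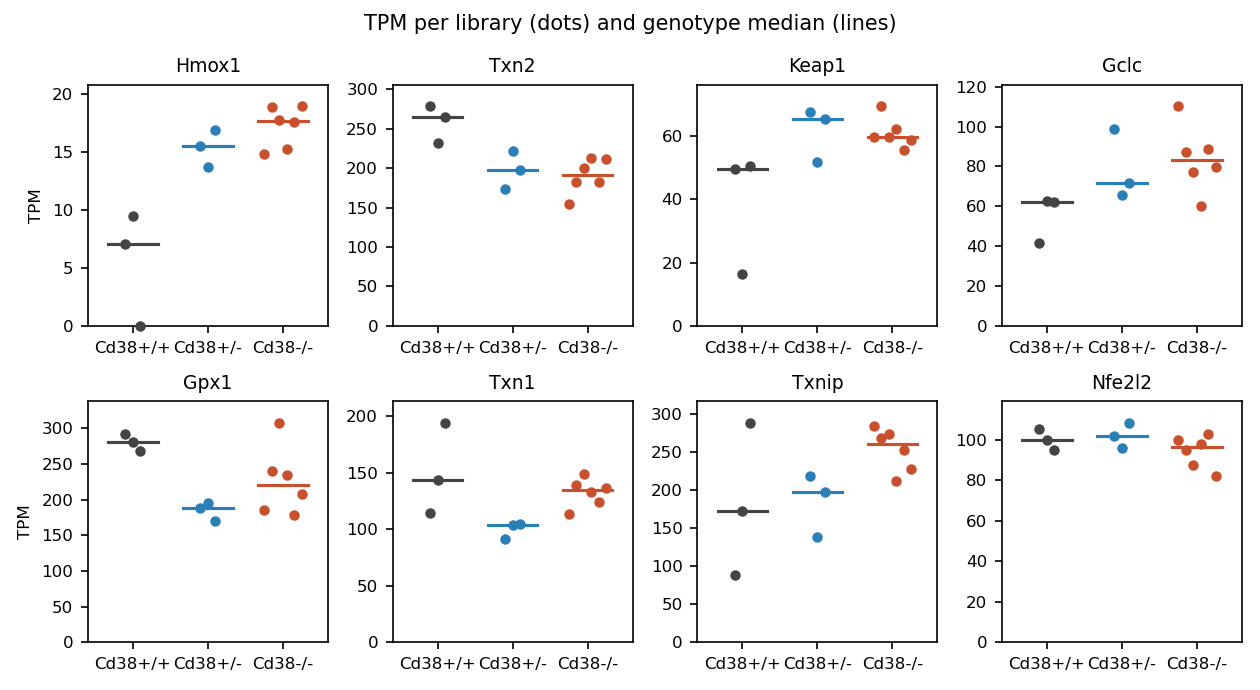
Dots give TPM per library and lines the median of each genotype for 8 members, on axes that start at 0. For Hmox1 and Keap1 all mutant libraries lie above all Cd38+/+ libraries and for Txn2 all lie below. For Txn1 the Cd38+/- libraries lie below all others. For Gpx1 they lie below those of Cd38+/+ and overlap those of Cd38-/-, and for Nfe2l2 the genotypes overlap.

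How many members were DEGs in Cd38-/- depended on single libraries. The count of 2 became 4 without Cd38+/+ replicate 1 or 2 and 8 without Cd38+/+ replicate 3, of which 7 were higher. It became 0 without Cd38-/- replicate 1, 2, 3, 5 or 6 and was again 2 without replicate 4, where Hmox1 was lost and Gclc (q = 0.0447) stood beside Txn2. Keap1 was called without Cd38+/+ replicate 1 (q = 0.0350) and without replicate 3 (q = 0.0202). Over all genes the 970 DEGs became 1829 of 11778 tested without Cd38+/+ replicate 1 and 1931 of 11735 without replicate 2. Without Cd38+/+ replicate 3 they became 3119 of 11779, the background for the 8 of 38 members called there. Of these DEGs over all genes, 72.6%, 72.2% and 72.7% were higher. The single calls given above without a Cd38+/+ library came from these same fits. Without each Cd38-/- library the 970 became 112, 74, 573, 798, 93 and 154.

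**Figure D4:**
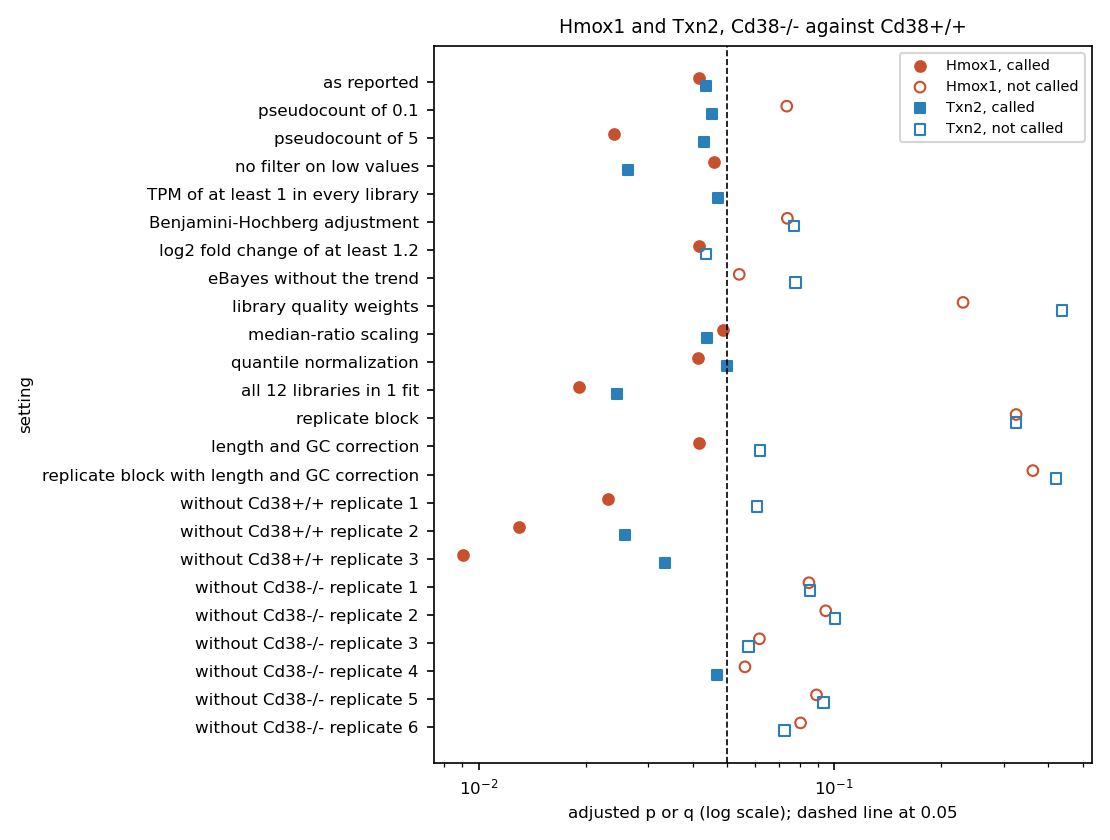
The q-value of Hmox1 (circles) and Txn2 (squares) in Cd38-/- against Cd38+/+ is plotted on a log axis for the reported fit and each alternative; filled symbols are DEGs, open symbols are not, and the dashed line is 0.05. Hmox1 spans 0.00906 to 0.362 and Txn2 0.0244 to 0.438, and both lose the call in most fits without 1 Cd38-/- library.

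Further genes of the same pathways were followed in 5 lists. For Cd38-/- against Cd38+/+, none of 22 tested genes of glutathione transport, conjugation and turnover was a DEG, and their median log2 fold change was 0.20, beside 0.15 over all genes. The largest values were those of Ggt1 (1.54, limma q = 0.114), a gamma-glutamyltransferase whose Cd38+/+ libraries held 6.04, 0 and 18.71 TPM, and Abcc4 (1.15, limma q = 0.101), an export pump. Among 24 other genes of thioredoxin-fold and related redox proteins (median 0.09), 2 rose and 1 fell, that is 3 of 24 beside 8.28% of all genes (6.42% higher and 1.86% lower), the background for the lists that follow as well. Txnl1, a thioredoxin-like protein of the proteasome, rose from 61.43 to 76.37 TPM in Cd38+/+ to 87.56 to 103.81 in Cd38-/- (log2 fold change 0.43, limma q = 0.0455). Pdia4, a disulfide isomerase of the endoplasmic reticulum, rose from 265.5 to 342.22 TPM to 341.25 to 524.74 (0.50, limma q = 0.0425), with 1 library overlapping. Selenom, a selenoprotein of the same compartment, fell from 161.59 to 219.65 TPM to 81.48 to 140.13 (-0.76, limma q = 0.0249) and held 100.9 to 133.84 in Cd38+/-. Txnrd3 and Sesn2 had the largest positive values of this list, 1.67 and 0.90, without passing (limma q = 0.0616 and 0.0527).

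Among 18 tested regulators and further targets of Nrf2, with a median of -0.10, none rose and 2 fell. Blvrb, a biliverdin reductase that is abundant in red cells, fell from 62.51 to 75.7 TPM in Cd38+/+ to 27.12 to 52.38 in Cd38-/- (log2 fold change -0.74, limma q = 0.0363) and held 34.72 to 46.67 in Cd38+/-. Within Cd38+/+ the library with the highest erythroid sum, replicate 2, had the lowest Blvrb. Within Cd38-/- the libraries with the highest sums, replicates 3 and 4, had the highest Blvrb, 46.74 and 52.38 TPM, while replicate 1 had the lowest Blvrb, 27.12 TPM, but not the lowest sum (4687 TPM, beside 3805 TPM in replicate 6); whether red-cell RNA took part in the difference was not tested. Cbr1, a carbonyl reductase, fell from 168.25 to 231.42 TPM to 129.48 to 158.36 (-0.42, limma q = 0.0467). Nfe2l1, a relative of Nrf2, and Bach1, a heme-sensitive repressor of Hmox1, had the largest values of this list, 0.99 and -0.81, and did not pass (limma q = 0.0805 and 0.108). Bach1 was at 8.73, 7.98 and 4.6 TPM in Cd38+/+, 2.34 to 4.11 in Cd38+/- and 2.76 to 4.75 in Cd38-/-.

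Of 14 tested entries for 13 enzymes that supply NADPH (Nnt has 2 identifiers; median 0.20), Nadk2, the mitochondrial NAD kinase, rose from 92.33 to 101.27 TPM to 119.36 to 148.66 (log2 fold change 0.43, limma q = 0.0384) and held 139.01 to 154.44 in Cd38+/-. Me3 and G6pdx had the values 1.38 and 0.54 without passing (limma q = 0.133 and 0.132). Of 12 genes that make or carry selenoproteins (median 0.04), Sephs1, a homologue of selenophosphate synthetase, rose from 11.02 to 21.6 TPM to 27.25 to 43.24 (1.00, limma q = 0.0291), and Eefsec, the elongation factor that delivers selenocysteine at TGA codons, fell from 36.74 to 70.47 TPM to 26.02 to 33.69 (-0.72, limma q = 0.0418). In Cd38+/- against Cd38+/+ and between the mutant genotypes, no gene of the 5 lists was a DEG by limma. All 8 of these calls in Cd38-/- were lost without Cd38-/- replicate 1, 2, 5 or 6, at q-values up to 0.109. Over all 23 alternatives, these included, the number that ended the call ran from 8 for Selenom to 16 for Txnl1. Some were lost without other libraries too: replicate 3 of Cd38-/- for Txnl1, Pdia4, Cbr1, Nadk2 and Eefsec, replicate 4 for Txnl1, Cbr1 and Eefsec, and Cd38+/+ replicate 1 for Pdia4 and Cbr1, replicate 2 for Txnl1 and Pdia4 and replicate 3 for Cbr1, at q-values from 0.0502 upward. Of the genes named for size alone, Ggt1, Txnrd3, Sesn2, Bach1, Nfe2l1 and Me3 became DEGs without Cd38+/+ replicate 3 (limma q = 0.00928, 0.0210, 0.0107, 0.0214, 0.0234 and 0.0107), Abcc4, Txnrd3 and Nfe2l1 without replicate 1 (limma q = 0.0475, 0.0186 and 0.0354), and Abcc4 and Txnrd3 without replicate 2 (limma q = 0.0444 and 0.0422). Other omissions shrank the same values: without Cd38+/+ replicate 1 Me3 was 0.27, without replicate 2 Ggt1 was 0.35, Nfe2l1 0.32 and Txnrd3 0.66, and without replicate 3 Abcc4 was 0.33 and G6pdx 0.09.

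**Figure D5:**
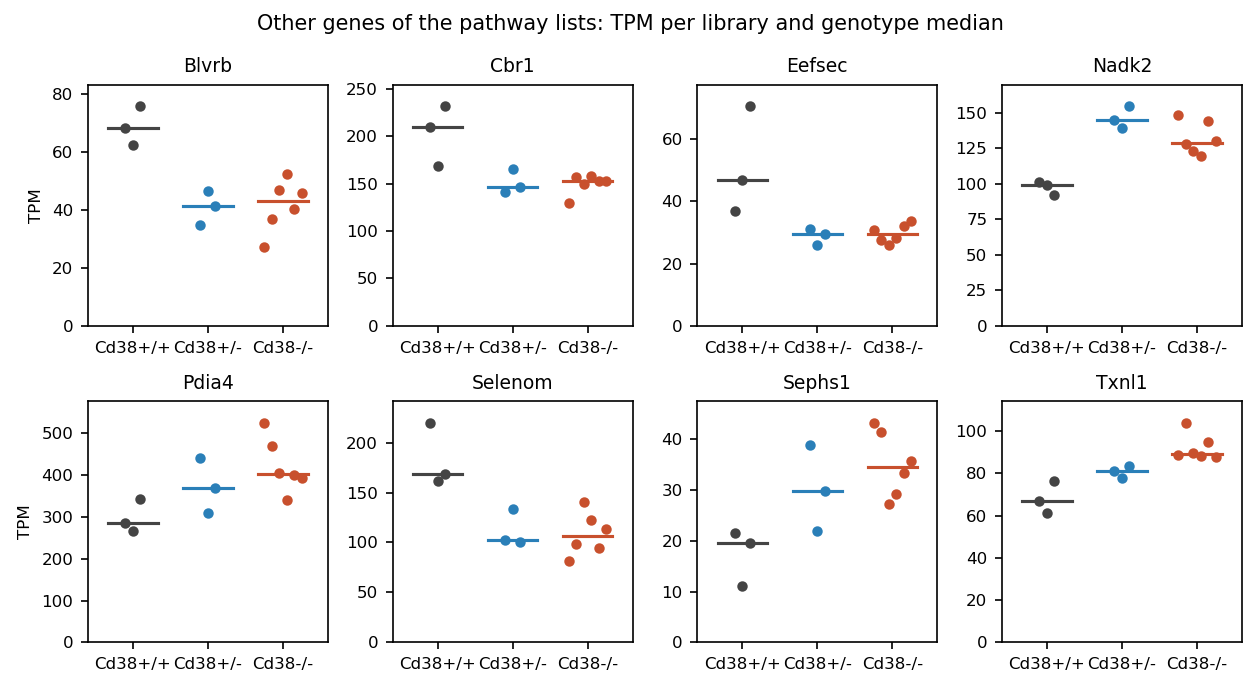
Dots give TPM per library and lines the genotype median for the 8 further pathway genes that were DEGs in Cd38-/- against Cd38+/+, on axes that start at 0. All Cd38-/- libraries lie above all Cd38+/+ libraries for Nadk2, Sephs1 and Txnl1 and below them for Blvrb, Cbr1, Eefsec and Selenom, while Pdia4 overlaps in 1 library.

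Between the mutant genotypes, differences of the members were small. All 38 were tested in Cd38-/- against Cd38+/-, and their log2 fold changes ran from -0.41 for Ggt5 to 0.47 for Txnip with a median of 0.05, beside -0.02 over all genes; 25 of 38 were above 0 (65.8%), beside 45.4% of genes. The 3 members with an unadjusted limma p under 0.05, Txn1, Txnip and Gsr, were all higher in Cd38-/-, beside 6.24% of all genes in that direction. For all 38 members the 95% interval excluded a change of 2-fold or more in either direction. All 7 peroxiredoxin and sulfiredoxin genes had log2 fold changes above 0, from 0.02 to 0.22, none with an unadjusted limma p under 0.05.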

How the data were processed

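RNA-seq of 12 astrocyte libraries was analysed. Per the methods, ribosomal RNA was depleted (the labels list poly(A) RNA), cDNA was made with a SMART-Seq low-input kit and paired ends were sequenced. Per the labels and methods, the authors trimmed reads with Trim Galore 0.6.4, mapped them to mm10 with STAR 2.7.1a and estimated expression with RSEM 1.2.28. The annotation is not given in the sources used here. The authors deposited TPM with 2 decimals, in 1 column per library without pooling; depth is unknown, so no counting interval is given. Positions came from GENCODE vM21 on GRCm38.

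Genotypes came from the labels. A gene entered a comparison if its mean TPM exceeded 5 in either genotype, and its log2(TPM + 1) values went into limma 3.58.1 (R 4.3.3; eBayes with trend; statmod 1.5.0), using the libraries of the compared genotypes. Fold changes are on the log2(TPM + 1) scale and understate changes of low genes. A DEG had a Storey q under 0.05 with a change of 1.2-fold or more, the thresholds of the methods, which do not say which test gave q; DESeq2 1.36.0 is also among the tools that the authors' processing notes name, with no role stated. Single members were compared by two-sided exact permutation tests. From the microglia list and from the erythroid list, 1 gene each is not reported here and was left out of the sums. Members, lists and tests were chosen with earlier results of these data known. Values by library (for Cd38-/-, at least the lowest, median and highest) are given for members called, members without overlap between Cd38+/+ and Cd38-/-, Nfe2l2, Keap1, Nqo1, Hmox1, Gclc, Gclm, Srxn1, Txnrd1 and the 3 most abundant members; Gpx1, Txn1, Txnip and Gpx8 were added after their values were seen. From the 5 pathway lists, DEGs and the 2 largest changes per list in Cd38-/- against Cd38+/+ are named. The fitting code was checked on simulated data. Alternatives were pseudocounts of 0.1 and 5, filters, Benjamini-Hochberg adjustment, a log2 fold threshold of 1.2, median-ratio scaling, eBayes with no trend, quantile normalization, weights for library quality, 1 fit of all libraries, a replicate block, length and GC correction, and leaving out each library. Figures were drawn with matplotlib 3.10.9 (Python 3.11.15).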

Additional observations from a re-analysis of the deposited data

Results flagged for a closer look

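Cbr1 in Cd38-/- replicate 1 stood apart from the other libraries of its genotype. It held 129.48 TPM there, and the nearest of the other 5 Cd38-/- libraries held 149.91; this gap was 0.707 of the whole range, above the 95% critical value of Dixon's test for 6 libraries. The 38 members, their mean per library and the named pathway genes made 66 values examined in this way, of which chance alone flags about 1 in 20 groups, and none of the 38 members was flagged.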

How the results depend on the processing

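In Cd38-/- against Cd38+/+ the 2 member DEGs became 0 with Benjamini-Hochberg adjustment, without the eBayes trend and under library quality weights. They also became 0 under the replicate block, with or without length and GC correction. The count was 1 with a pseudocount of 0.1, a minimum of 1 TPM in every library, the log2 fold threshold of 1.2, or length and GC correction. Quantile normalization gave 3, with Gclc added (limma q = 0.0494). The fit of all 12 libraries gave 4, with Keap1 (limma q = 0.0445) and Gclc (limma q = 0.0421) added. Leaving out 1 library gave 0 to 8. Over all genes the 970 DEGs became 2283 with no filter on low values, 326 with Benjamini-Hochberg adjustment, 337 with the log2 threshold, 1 with library quality weights, 1822 in the fit of all libraries, 2 with the replicate block and 1 with the block and the correction, and 74 to 3119 without 1 library. In Cd38+/- against Cd38+/+ the member count of 0 became 1 with no filter (Gpx1) and 3 in the fit of all libraries (Gpx1, Txn1 and Hmox1), and the gene count of 0 became 663, 9, 30, 1464, 4 and 1 with no filter, without the trend, with quality weights, in the fit of all libraries, with the replicate block, and with block and correction; leaving out 1 library gave 0 members and 0 to 10 genes. Between the mutant genotypes the member count of 0 became 9 with library quality weights, where 3120 genes were called, and stayed at 0 under the other alternatives; the gene count of 4 became 2 with the log2 threshold, the replicate block, or the correction, 1 with median-ratio scaling or the fit of all libraries, and 0 to 93 without 1 library. The causes were not tested. Same-numbered libraries correlated at -0.32 to 0.50 in their deviations, and not every library correlated best with its own number, so the replicate numbers were not taken as pairs. The 32 fold changes recomputed gene by gene (members called, without overlap or with an unadjusted limma p under 0.05, the named pathway genes in Cd38-/- against Cd38+/+, and Cd38) kept their sign under every alternative run. Hmox1 lost its call under 12 of 22 alternatives and Txn2 under 13 of 23; with a minimum of 1 TPM in every library Hmox1 gives no value. Over all members, the sign turned under at least 1 alternative for 24 of 38 in Cd38+/-, 23 of 37 in Cd38-/- and 23 of 38 between the mutant genotypes, Gpx1 (-0.33, highest 0.03) and Hmox2 (0.37, lowest -0.14) in Cd38-/- among them. Depth, unknown in TPM, limits low genes such as Hmox1 and Ggt5 most.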

Other observations

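Genes annotated with a selenocysteine codon were also followed as a group, since 5 members carry one. GENCODE marks 24 such genes in the table, and 20 were tested. In Cd38-/- against Cd38+/+ they had 12 log2 fold changes above 0 and a median of 0.04, beside 0.15 over all genes; 1 was a DEG, Selenom, which was lower (beside 8.28% of all genes, 1.86% lower). Txnrd3 (log2 fold change 1.67, limma q = 0.0616), Selenof (log2 fold change 0.41, limma q = 0.0618), Selenow (-0.33, limma q = 0.107), Selenoo (1.21, limma q = 0.0895) and Selenoi (1.11, limma q = 0.113) had an unadjusted limma p under 0.05 without passing (beside 23.6% of all genes with such a p, DEGs included). In Cd38+/- against Cd38+/+ no selenoprotein gene was a DEG by limma, and the 4 with an unadjusted p under 0.05 were all lower (beside 13.5% of all genes, 3.99% lower): Gpx1 (-0.60), Selenom (-0.70), Selenoh (-0.60) and Selenok (-0.40). Between the mutant genotypes the 2 such genes, Dio2 (-0.59) and Selenon (-0.35), were both lower in Cd38-/- (beside 11.2% of all genes with an unadjusted limma p under 0.05, 5% lower). This group was examined after the values of the members had been seen.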
